A study of Homo sapiens with 5 samples.

Results

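ULBP3 and ICOSLG are genes of cell surface ligands through which immune cells read another cell, and both have a window in the study's list of 1303 gene windows with G-quadruplex (G4) peaks in C4-2 cells. These 2 windows were chosen from that list, which was itself made from called peaks, because the genes are immune ligands. The peak values below are therefore a description, and no test was made on them. They hold 7 of the 25460 peaks in the deposited lists. In BG4 ChIP-seq, folded G4 DNA is pulled down from cross-linked and sonicated chromatin with the antibody BG4 and sequenced, and a peak is called where reads exceed the local background. The samples were 4 biological replicates of C4-2 cells with no treatment named, an established human prostate cancer cell line derived from LNCaP cells, all immunoprecipitated with BG4. They form 1 condition, the sample labels also give prostate cancer tissue as the source, and peak lists hold no expression values with which to check the cell type. An input library was not analysed here.

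A G4 is a stack of planar guanine tetrads that a DNA strand with several nearby runs of G can form, and such runs are frequent in the GC-rich promoters of many genes. ULBP3 belongs to the ULBP and RAET1 family, relatives of MHC class I that lie together on the long arm of chromosome 6. Together with MICA and MICB they are the ligands of NKG2D (gene KLRK1), an activating receptor of natural killer cells and cytotoxic T cells that signals through the adaptor HCST. ICOSLG, on the long arm of chromosome 21, is a member of the B7 family and binds ICOS, a costimulatory receptor of activated T cells related to CD28. Both ligands act on the surface of the cell that presents them, and both can be expressed outside the immune system.

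The sequence just before the start of each gene is shown first, since a G4 needs runs of G. The 250 bases before the RefSeq start are given 5′ to 3′ on the strand of the gene (GRCh38.p14), with each run of at least 3 G in capitals. ULBP1 is shown as a neighbour with a peak nearby and RAET1L as the neighbour nearest to ULBP3. ULBP3 lies on chr6:150069122-150069371 (minus strand), ICOSLG on chr21:44240944-44241193 (minus strand), ULBP1 on chr6:149963693-149963942 (plus strand) and RAET1L on chr6:150025533-150025782 (minus strand).
ULBP3: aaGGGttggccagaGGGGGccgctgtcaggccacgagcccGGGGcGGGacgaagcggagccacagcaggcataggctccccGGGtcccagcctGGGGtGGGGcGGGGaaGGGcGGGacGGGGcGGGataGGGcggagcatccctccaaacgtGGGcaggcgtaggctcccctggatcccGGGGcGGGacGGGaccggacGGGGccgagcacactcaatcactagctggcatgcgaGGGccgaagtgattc
ICOSLG: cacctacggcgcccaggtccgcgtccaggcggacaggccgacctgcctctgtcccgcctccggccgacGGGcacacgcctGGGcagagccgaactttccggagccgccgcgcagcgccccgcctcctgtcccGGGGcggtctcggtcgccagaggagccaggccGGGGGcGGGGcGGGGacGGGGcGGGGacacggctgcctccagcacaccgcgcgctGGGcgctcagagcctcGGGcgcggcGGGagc
ULBP1: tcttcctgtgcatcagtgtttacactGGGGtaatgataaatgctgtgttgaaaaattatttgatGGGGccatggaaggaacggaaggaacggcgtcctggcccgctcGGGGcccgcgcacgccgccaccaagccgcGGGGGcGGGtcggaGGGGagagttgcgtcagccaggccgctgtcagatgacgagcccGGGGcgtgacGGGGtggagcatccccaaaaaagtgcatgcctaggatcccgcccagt
RAET1L: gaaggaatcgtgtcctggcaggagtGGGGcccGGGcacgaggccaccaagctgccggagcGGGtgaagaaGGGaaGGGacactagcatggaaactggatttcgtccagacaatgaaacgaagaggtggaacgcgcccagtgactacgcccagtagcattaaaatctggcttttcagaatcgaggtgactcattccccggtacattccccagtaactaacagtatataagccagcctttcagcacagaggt
The ULBP3 sequence holds 19 runs of G, the ICOSLG sequence 11, the ULBP1 sequence 8 and the RAET1L sequence 5. In ULBP3 the runs crowd into 2 stretches, in ICOSLG into 1, and in RAET1L they lie in the distal part only. These sequences are on GRCh38 while the peaks are on GRCh37 (hg19), and whether a window centre and a RefSeq start are the same base was not established.

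The window of ULBP3 (chromosome 6, 150388231 to 150392231, GRCh37) had exactly 1 peak in each of the 4 replicates. A peak in all 4 was found for 12.8% of the 1303 windows. The fold enrichment at the summit, the authors' ratio of reads over the local background, was 9.79 in replicate 1, 8.14 in replicate 2, 7.49 in replicate 3 and 6.43 in replicate 4. Its mean was 7.96 ± 1.41 (SD, n = 4), so the highest value was 1.52 times the lowest. The −log10 of the q-value was 12.5, 9.32, 7.86 and 5.90 in the same order. All 4 values were far above the lowest −log10 q of any list, which lay between 1.30 and 1.35.

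Within its own list the ULBP3 peak was of middle strength. By fold enrichment it ranked 2192 of 8036 peaks in replicate 1, 2462 of 6192 in replicate 2, 3300 of 6805 in replicate 3 and 2523 of 4427 in replicate 4. The share of peaks with a lower value was thus 72.3%, 59.6%, 50.6% and 41.7%. By −log10 q its ranks were 2423, 2474, 3436 and 2629, close to those by fold enrichment. It stood above the median peak in replicates 1, 2 and 3 and below it in replicate 4, where its fold enrichment was 0.947 times the median of the list.

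The window of ICOSLG (chromosome 21, 45658849 to 45662849, GRCh37) had 1 peak each in replicates 1, 2 and 4 and none in replicate 3. Its fold enrichment was 9.09 in replicate 1, 5.44 in replicate 2 and 6.78 in replicate 4. The 3 peaks averaged 7.10 ± 1.85 (SD, n = 3), and with 0 for replicate 3 the mean was 5.33 ± 3.86 (SD, n = 4). The −log10 q was 11.0, 4.08 and 6.30. Of all windows, 26.6% had a peak in at least 3 replicates.

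The ICOSLG peak differed more in its place between lists than the ULBP3 peak. It ranked 2667 by fold enrichment in replicate 1, 5143 in replicate 2 and 2264 in replicate 4, with 66.2%, 15.1% and 48.3% of the peaks of the list below it. By −log10 q the ranks were 2836, 5311 and 2399. In replicate 2 it was among the weaker peaks of the list, while in replicate 4 it stood slightly higher than the ULBP3 peak. The values of the 2 genes overlapped, with ULBP3 between 6.43 and 9.79 and the ICOSLG peaks between 5.44 and 9.09.

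**Figure D1:**
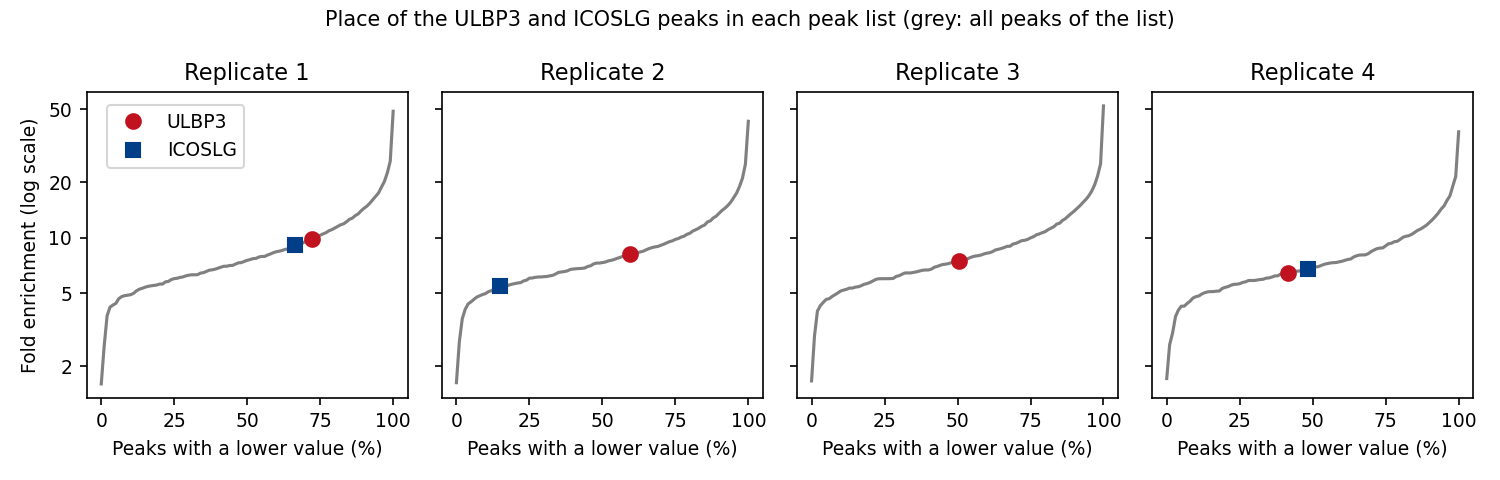
Fold enrichment (log scale) against the share of peaks with a lower value in the list of each replicate, with all peaks as a grey line and the peaks of ULBP3 (red circles) and ICOSLG (blue squares) as points. ULBP3 moves from 72.3% in replicate 1 to 41.7% in replicate 4, and ICOSLG lies at 66.2%, 15.1% and 48.3% in replicates 1, 2 and 4.

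Replicate 3, which lacked an ICOSLG peak, had the second longest list. The pattern of peaks in replicates 1, 2 and 4 only was found in 17 of the 1303 windows (1.3%). Peaks in replicates 1, 2 and 3 only, without replicate 4 and its shortest list, were found in 105 windows. In replicate 3, 863 peaks (12.7%) had a lower −log10 q than the ICOSLG peak of replicate 2, 2378 (34.9%) a lower one than that of replicate 4, and 4461 (65.6%) a lower one than that of replicate 1. Peaks with −log10 q below that of each ICOSLG peak were thus present in the list of replicate 3, and none of them lay within 97.7 kb of the ICOSLG window centre. Signal too weak to be called would leave no entry in a list, and without read counts the depth of the libraries is unknown. A −log10 q depends on depth, so these shares do not show whether an equal signal would have been called in replicate 3. Why it had no peak was not tested.

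The 4 peaks of ULBP3 overlapped each other. They spanned 150390149 to 150390562 in replicate 1 (414 bp), 150390283 to 150390591 in replicate 2 (309 bp), 150390191 to 150390508 in replicate 3 (318 bp) and 150390264 to 150390561 in replicate 4 (298 bp). The stretch shared by all 4, 150390283 to 150390508, is 226 bp long and holds all 4 summits. The 4 peaks together covered 443 bp. Any pair of replicates shared between 73.1% and 100% of the shorter peak and between 67.6% and 90.3% of the longer. Taking the minus strand of the gene into account, the summit lay upstream of the window centre in each replicate, by 118, 189, 92 and 108 bp. They fell within 97 bp of each other, and the median of this range over the 167 windows with a peak in all 4 replicates was 98 bp.

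The peak of replicate 1 was the widest at ULBP3 and that of replicate 4 had the lowest width in its list, 298 bp, which 18.8% of the peaks of that replicate share. In replicates 2 and 3, 17.5% and 20.4% of the peaks were narrower than the ULBP3 peak, against 62.0% in replicate 1. The mean width was 335 ± 53.5 bp (SD, n = 4).

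The 3 ICOSLG peaks overlapped but did not share a summit. They spanned 45660320 to 45660605 in replicate 1 (286 bp), 45660344 to 45660791 in replicate 2 (448 bp) and 45660363 to 45661010 in replicate 4 (648 bp). The shared stretch, 45660363 to 45660605, is 243 bp long and holds the summits of replicates 1 and 2 but not that of replicate 4. The summits lay 408, 334 and 54 bp downstream of the window centre in replicates 1, 2 and 4. Their range of 354 bp was larger than in 83.3% of the 180 windows with a peak in 3 replicates, where the median was 109 bp. The peak of replicate 4 was wider than 92.2% of its list and was the only one of the 3 to cross the window centre, reaching 161 bp upstream of it. The peaks of replicates 1 and 2 began 244 and 58 bp downstream of the centre. If the centre is taken as the start of the gene, the ICOSLG bases printed above lie outside these 2 peaks and outside the stretch shared by the 3.

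**Figure D2:**
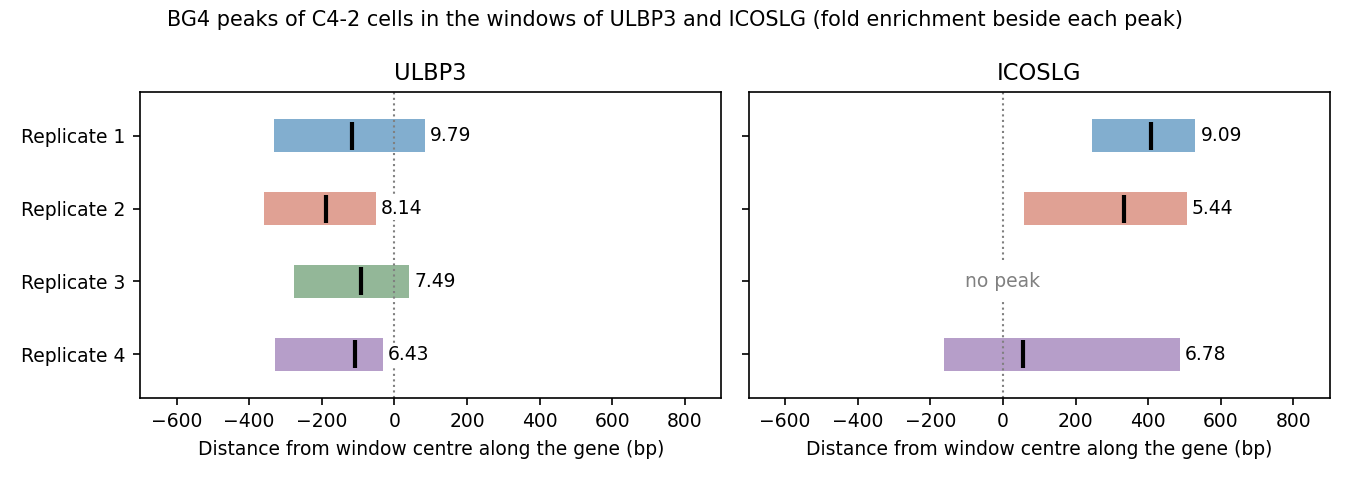
Called peaks (bars) and their summits (black ticks) of the 4 replicates, by distance from the window centre along the gene in bp, where negative is upstream and the number beside each bar is its fold enrichment. The ULBP3 summits lie between 92 and 189 bp upstream, and the ICOSLG summits between 54 and 408 bp downstream with no peak in replicate 3.

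So the summits of the 2 genes lay on opposite sides of their window centres, ULBP3 at 127 ± 42.9 bp upstream (SD, n = 4) and ICOSLG at 265 ± 187 bp downstream (SD, n = 3). In the class of ULBP3, the 167 windows with full support, the mean summit lay upstream in 88 (52.7%). In the class of ICOSLG, the 180 windows supported by 3 replicates, it lay downstream in 90 and upstream in 90. In 33.5% of the first class the mean summit was nearer to the centre than that of ULBP3, and in 49.4% of the second nearer than that of ICOSLG. In both classes some windows of neighbouring genes hold the same peaks, so the windows counted are not all separate regions.

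Among all 1303 windows ULBP3 ranked 92 by mean fold enrichment and ICOSLG ranked 250, with 0 counted for a replicate without a peak. With this rule a window with more replicates tends to rank higher. Within the 167 windows with a peak in all 4 replicates ULBP3 ranked 86, and the median of that class was 7.97. Within the 180 windows with a peak in 3 replicates ICOSLG ranked 80, and the median was 5.22. Both genes were thus close to the middle of their class, in which windows that hold the same peaks are each counted.

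**Figure D3:**
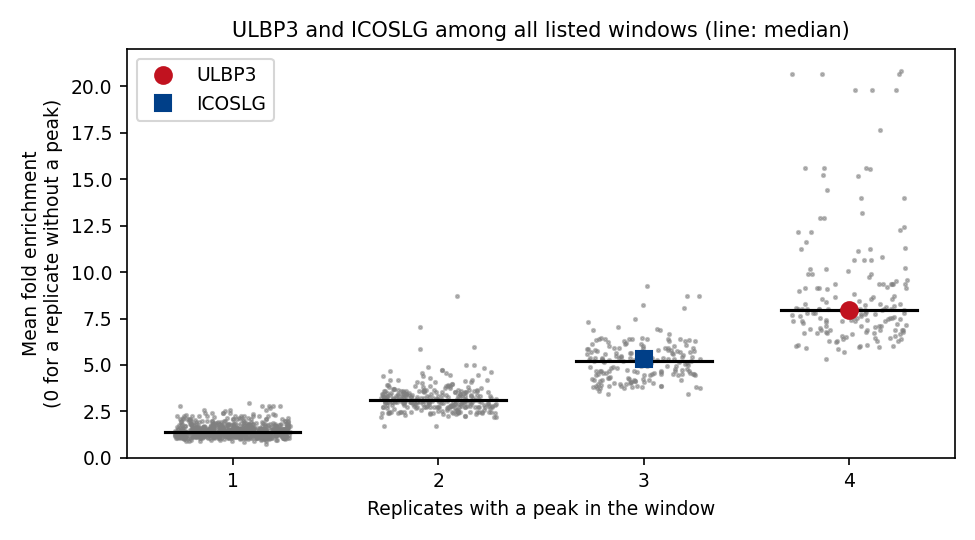
Mean fold enrichment of each of the 1303 windows (grey points, 0 for a replicate without a peak) by the number of replicates with a peak, with the median of each class as a line. ULBP3 (red circle, 7.96) and ICOSLG (blue square, 5.33) lie close to the medians of 7.97 and 5.22 of their classes.

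The windows most like ULBP3 in their 4 fold enrichments, by Euclidean distance over the 4 replicates, were MFSD2A (0.709), PFN3 (1.28) and SMKR1 (1.54). MFSD2A, a transporter of lysophospholipids, had 9.68, 8.59, 7.51 and 6.96 in replicates 1 to 4. The windows most like ICOSLG were NHSL1 and a clone-named transcript, RP11-390P2.4, which overlap and hold the same peaks (0.793), followed by NPL (2.50). NHSL1 had 8.64, 6.09 and 6.77 in replicates 1, 2 and 4 and none in replicate 3. Likeness in these values says nothing of shared function. No other window held a peak of ULBP3 or ICOSLG. The next window on the list was 2.86 Mb away for ULBP3 (STXBP5-AS1) and 0.581 Mb away for ICOSLG (RRP1B).

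The paralogues of ULBP3 are its neighbours. In hg38 (GENCODE v44) the start of RAET1L lies 43.6 kb from that of ULBP3, that of the pseudogene RAET1K 64.0 kb, ULBP1 105 kb, ULBP2 127 kb, RAET1G 146 kb and RAET1E 171 kb, all on the same side. These distances were set beside the distances of peaks from the ULBP3 window centre on GRCh37, without converting positions between the builds.

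Of the 6 neighbouring paralogues, 2 had a peak within 251 bp of their distance in at least 1 replicate. No cutoff was set beforehand and the share of all genes with such a peak was not computed, so this count is a description. Replicate 1 had a peak at 150284880 to 150285155 with its summit 105 kb away, within 53 bp of the distance of ULBP1. Its fold enrichment was 6.69, its −log10 q 6.53 and its rank 4955 in the list. It lies just outside the 100 kb used to define the neighbourhood. Replicates 3 and 4 had a peak 63.8 and 63.7 kb away, within 190 and 251 bp of the distance of RAET1K. This peak spanned 150326275 to 150326686 in replicate 3 and 150326320 to 150326675 in replicate 4. Its fold enrichment was 6.52 in replicate 3, below the 7.49 of ULBP3, and 8.73 in replicate 4, above the 6.43 of ULBP3. In replicate 4 it ranked 1218 against 2523 for ULBP3.

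No list had a peak at the distances of RAET1L, ULBP2, RAET1G or RAET1E. Within 100 kb of ULBP3, replicates 1 and 2 had no peak but that of ULBP3, and replicates 3 and 4 had only the peak near RAET1K. Beyond the paralogues, replicates 2 and 3 had a peak 205 and 206 kb away, within 66 and 953 bp of the distance of LRP11. The fold enrichment there was 5.52 and 5.99. On the other side, PPP1R14C, an inhibitor of protein phosphatase 1, starts 73.9 kb away in hg38, and no list had a peak within 250 kb on that side. By these distances ULBP3 was the only member of the cluster with a peak in every replicate, ULBP1 had one in 1 replicate and RAET1K in 2. ULBP3 was chosen from a list made from these same called peaks and its neighbours were not. The contrast is therefore partly set by that choice and is only a description.

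Within 100 kb, the surroundings of ICOSLG held more peaks, all near the distances of genes of other families. A peak 98.1 kb away in replicates 1, 2 and 3 and 97.9 kb away in replicate 4 lay within 338 to 515 bp of the distance of CFAP410, a gene of the primary cilium. Its fold enrichment was 16.4, 12.4, 11.5 and 8.76, and it was above that of ICOSLG in replicates 1, 2 and 4, where ICOSLG had a peak. Replicate 1 alone had a peak 59.0 kb away, within 103 bp of the distance of PFKL, the liver subunit of phosphofructokinase, with a fold enrichment of 6.27. No list had a peak at the distances of DNMT3L (20.95 kb), a cofactor of DNA methylation in germ cells, or AIRE (44.9 kb), the transcription factor that drives tissue antigen expression in the thymus.

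Counting just beyond 100 kb, peaks lay 107 kb away at the distance of GATD3 in replicates 1, 2 and 3, and 134 kb away at that of PWP2 in all 4. Farther out, a peak lay 188 kb away in all 4 replicates, at the distance of no gene considered here. The same held for peaks 185 kb away in replicate 3 and 214 to 215 kb away in replicates 1 and 2. Within 100 kb, replicates 1 to 4 had 0, 0, 1 and 1 other peaks around ULBP3 and 2, 1, 1 and 1 around ICOSLG. Another peak of any replicate lay within 100 kb for 60.2% of the 1303 windows.

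**Figure D4:**
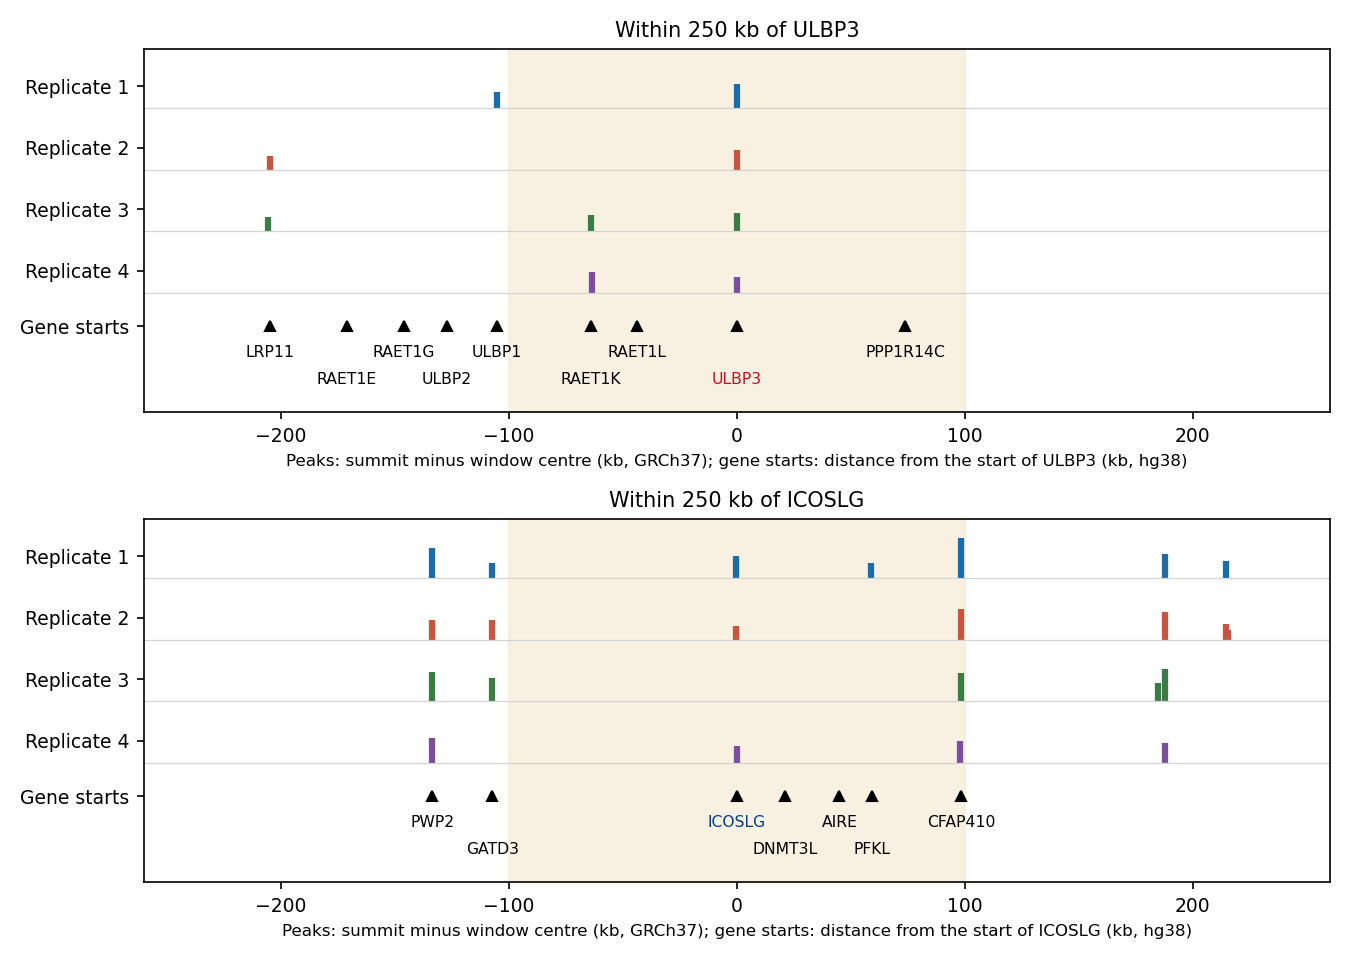
Peaks of the 4 replicates within 250 kb of ULBP3 and ICOSLG, with bar height in proportion to fold enrichment, by distance in kb from the window centre (GRCh37), above the distances of named gene starts from the start of the member in hg38 (triangles). The shaded part is 100 kb on each side, and ULBP3 is the only gene of its cluster with a bar in all 4 replicates. Unlike its neighbours, ULBP3 was chosen from a list made from these called peaks.

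The study's list has a window for ULBP3 but for none of the other 9 genes of the NKG2D axis considered here (ULBP1, ULBP2, RAET1E, RAET1G, RAET1L, MICA, MICB, KLRK1 and HCST). Of 14 genes of the B7 and CD28 families, it has a window for ICOSLG only, and none for CD80, CD86, CD274 (PD-L1), PDCD1LG2, CD276, VTCN1, VSIR, HHLA2, NCR3LG1, ICOS, CD28, CTLA4 or PDCD1. By symbol or synonym, 3.9% of the 20052 protein-coding genes of RefSeq have a window, and 1 gene in lists of 10 and 14 is too few to set against that share. The list was limited to G4 peaks taken as specific against the profiles of reference cell lines, so a gene without a window can still have peaks. ULBP1 has no window and a peak at its distance in replicate 1 only, without conversion between builds. Why it has no window was not tested.

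G4 motifs were searched in the RefSeq promoters, 300 bases from 250 before to 50 after the start, on both strands. A motif was 4 runs of at least 3 G with loops of 1 to 7 bases. The ULBP3 promoter held 3, more than 97.8% of the 35116 promoters, all on the strand of the gene. The first 2 lie nearly end to end at −157 to −139 and −137 to −119 from the start, and the third at −71 to −48. The sequences are, in this order:
ULBP3 motif a: GGGGtGGGGcGGGGaaGGG
ULBP3 motif b: GGGacGGGGcGGGataGGG
ULBP3 motif c: GGGGcGGGacGGGaccggacGGGG
Their loops have 1, 1 and 2 bases in the first, 2, 1 and 3 in the second, and 1, 2 and 7 in the third. The ICOSLG promoter held 1 motif, at −86 to −66, also on the strand of the gene.
ICOSLG motif: GGGGGcGGGGcGGGGacGGGG
By distance from the window centre, the peak of replicate 4 reached this motif and those of replicates 1 and 2 did not.
At least 1 motif was found in 25.0% of all promoters, so holding a motif is common among promoters, while 3 is not. The share of G and C was 70.7% for ULBP3 and 77.0% for ICOSLG, against a median of 58.7%. The letters GGGCGG, some of which overlap the G4 motifs, were counted on both strands together. Copies that overlap each other were not counted separately. They occurred 6 times in the ULBP3 promoter and 3 times in that of ICOSLG, and at least once in 45.0% of all promoters.

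Of the 9 genes of the NKG2D axis with a promoter entry, ULBP3 and ULBP2 held a G4 motif, beside 25.0% of all promoters. The only motif of ULBP2 lies at −161 to −139, and no peak was found at the distance of that gene. The promoters of ULBP1, RAET1E, RAET1G, RAET1L, MICA, MICB and HCST held none, although replicate 1 had a peak near ULBP1. Of the 13 genes of the B7 and CD28 families with an entry, ICOSLG, CD276 and PDCD1 held a motif, with 3 in PDCD1 and, for CD276, 2 at only one of its listed starts. These counts are per gene over all its listed starts, while the share of 25.0% is per promoter. Neither count is read as a trait of its list. A motif in this window is a description of its letters, and a lack of one says nothing of sequence outside it, such as the first bases downstream where the ICOSLG summits of replicates 1 and 2 lay.

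**Figure D5:**
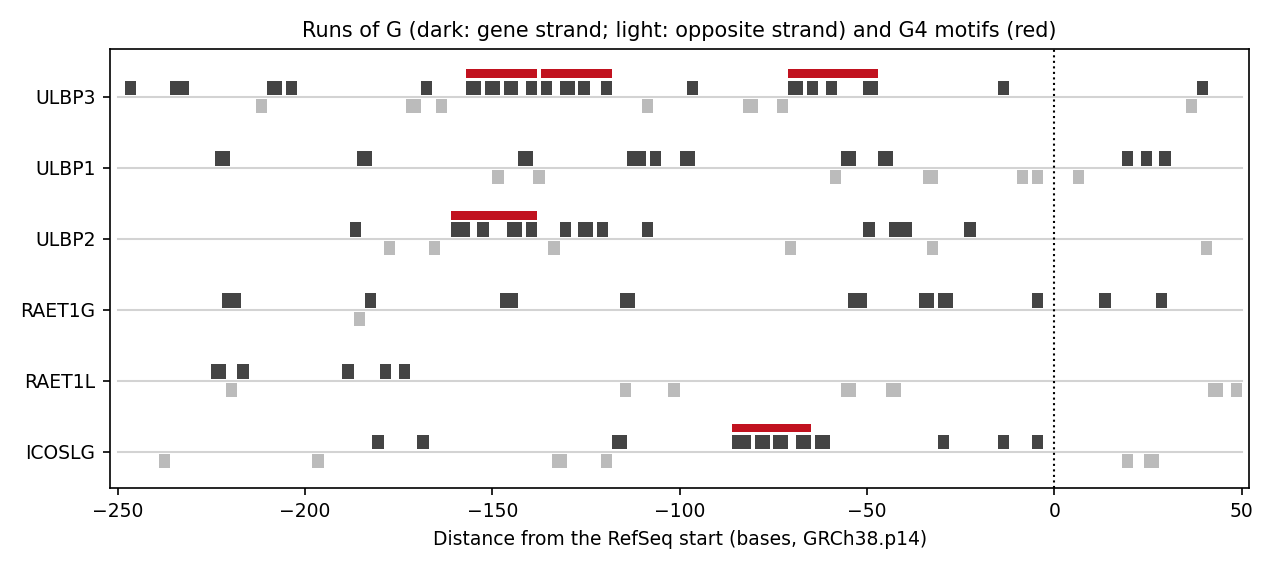
Runs of at least 3 G on the strand of the gene (dark) and on the opposite strand (light), and G4 motifs (red), by distance in bases from the RefSeq start (GRCh38.p14) for 5 genes of the ULBP and RAET1 cluster and ICOSLG. ULBP3 has 3 motifs, ULBP2 and ICOSLG 1 each, and ULBP1, RAET1G and RAET1L none.

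Paralogues and copies matter here because reads of near-identical sequence cannot be assigned to 1 place. Aligned from end to end, the ULBP3 promoter was no closer to those of most of its paralogues than to an unrelated promoter. In global alignments over the 300 bases it shared 51.0% of the aligned columns with ULBP1, 53.5% with ULBP2, 49.3% with RAET1E, 51.4% with RAET1G and 54.7% with RAET1L, and with the unrelated ICOSLG promoter 53.98%. A search of hg38 found no second match of at least 100 bases at 90% identity. The ULBP1 promoter matched a stretch of 276 bases at 150005277 to 150005541 (hg38), next to RAET1K, at 78.6% identity. It also matched 111 aligned bases at 150069385 to 150069485, just upstream of the printed ULBP3 sequence, at 76.6% identity.

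The ICOSLG promoter, in contrast, was found in 2 places in hg38. All 300 bases match again at chr21:5022304-5022603, next to the gene LOC102723996, at 100% identity. The promoter entry of that gene begins 23 bases earlier, agrees in all 277 compared bases and holds the same motif. Whether GRCh37, on which the peaks were called, holds this copy was not analysed here, and the values of ICOSLG are uncertain to that extent.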

How the data were processed

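BG4 ChIP-seq was analysed in 4 replicates of C4-2 cells. Per the labels, the submitters' processing notes name bcl2fastq 1.8.4, Bowtie2 2.2.5, SAMtools 1.11 and MACS2 2.1.1 with hg19, while the paper's methods name hg38. The last peak on chromosome 1 ends at 249201060, beyond the 248956422 bp of hg38, so positions were taken as GRCh37. Options and use of the input as a control are not given in the sources used here. The authors deposited 1 peak list per replicate (8036, 6192, 6805 and 4427 peaks). The deposited fold enrichment is a ratio over the local background. The deposited p-values and q-values are −log10. The deposited score is the whole part of 10 times the −log10 q and was not used. The deposited positions and summit offsets are in bp. The lists hold no counts, so depth is unknown and no interval was computed.

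A peak counted in a window of 4000 bp when it overlapped it by at least 1 bp, and the neighbourhood was 100 kb around the window centre. Windows came from the study's list. Starts are 1-based. Promoters are RefSeq (GRCh38.p14); all entries were matched by symbol, 9 of 10 and 13 of 14 genes. Copies were searched in hg38 with BLAST 2.17.0. Python 3.11.15, pandas 2.3.3, Biopython 1.88 and matplotlib 3.10.9 were used. Steps were tested on simulated data: 1200 window values and 200 sequences, with 100% recovered. The members and lists were chosen with earlier results of these data known. Named genes are the members, the fixed NKG2D and B7 lists, flanking genes, and the windows nearest in place or values. With 1 condition, no test between groups was made. Alternatives were stricter peaks, the 3000 strongest peaks, summits within 500 bp, ranks by −log10 q, wider neighbourhoods, other motif definitions and each replicate left out.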

Additional observations from a re-analysis of the deposited data

Results flagged for a closer look

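Around ICOSLG, replicate 1 stood apart from the other 3 replicates in the number of other peaks within 100 kb and in the distance to the nearest one. As a share of the range over the 4 replicates, this gap came to 1.0 for the number and 0.996 for the distance. Both values come from the single peak near PFKL. Of 11 measures over 4 replicates these 2 stood this far apart, chance alone gives about 1 in 20, and counts with ties reach the limit easily.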

How the results depend on the processing

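No paired analysis was possible because the series has 1 group of replicates with peak lists. Peaks with a −log10 q of at least 4 left 4 replicates for ULBP3 and 3 for ICOSLG, as did summits within 500 bp of the centre. Among the 3000 strongest peaks per replicate, ULBP3 kept a peak in 3 replicates and ICOSLG in 2, and the number of windows with a peak in all 4 replicates was 40 instead of 167. With each replicate left out, windows with a peak in all 3 remaining replicates numbered from 184 to 272, the highest without replicate 4. This asks for fewer replicates, so these counts cannot fall below 167. The mean fold enrichment ranged from 7.35 to 8.47 for ULBP3 and from 4.07 to 7.10 for ICOSLG, where the highest came without replicate 3. Summed over replicates, other peaks numbered 2 around ULBP3 and 5 around ICOSLG within 100 kb, 5 and 20 within 250 kb, and 26 and 52 within 1000 kb. Runs of at least 2 G gave 5 motifs in the ULBP3 promoter and 6 in that of ICOSLG, instead of 3 and 1, and were found in 81.5% of all promoters. Ranking by −log10 q moved the mean share of lower peaks from 56.1% to 54.2% for ULBP3 and from 43.2% to 40.6% for ICOSLG. Depth is unknown and limits what a missing peak can show.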
